A study of Homo sapiens with 6 samples.

Results

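The genes described here encode the replacement histone variants, the histones that are made and put into chromatin outside S phase. They were taken as the rows of the deposited count table whose Ensembl identifiers map to *H2AX*, *H2AJ*, *H2AZ1*, *H2AZ2*, *MACROH2A1*, *MACROH2A2*, *H3-3A*, *H3-3B* and *H1-10*, which is 9 of the 58336 genes in the table. RNA was sequenced from A2780 cells, an ovarian cancer cell line, exposed either to the vehicle DMSO (3 libraries, replicates A, B and C) or to TH588 at 6 µM for 48 h (3 libraries, replicates A, B and C). TH588 is a small molecule inhibitor of MTH1, the Nudix hydrolase that removes oxidized nucleotides from the nucleotide pool. All libraries came from this single line, and both groups shared the same medium, with serum and insulin. The DMSO group rests on the titles and treatment labels, because a protocol text shared by all 6 samples mentions TH588 alone. Each treatment has 3 biological replicates, and A2780 cells stand here for no other ovarian cancer line.

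Most histones are made in large amounts in S phase from clustered genes without introns, whose messages end in a stem-loop in place of a poly(A) tail. The replacement variants lie outside those clusters. Most of them, though not all to the same degree, give polyadenylated messages and are made throughout the cell cycle. They fill nucleosomes opened by transcription, repair or the slow turnover of chromatin. H3.3, encoded by both *H3-3A* and *H3-3B*, is placed at active genes by the HIRA complex and at telomeres and other repeats by DAXX and ATRX. H2A.Z sits beside transcription start sites, macroH2A carries a large domain outside the nucleosome and is found in silent chromatin, and H2AX is the variant that is phosphorylated around DNA breaks to give γH2AX. H2A.J accumulates in senescent cells with persistent DNA damage, and H1-10 is a linker histone.

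Total counts ranged from 83144642 to 98176722 under DMSO, and the TH588 libraries A, B and C had 28537837, 99074175 and 77634048, so TH588 replicate A was the shallowest library. The small nucleolar RNA gene *SNORD3A* took 7.68% to 10.6% of counts under DMSO and 11.2% to 21.9% under TH588, the most in replicate A, which also differed most from the other libraries of its group. With the 10 most abundant genes left out of the scaling, 7 of the 9 variants were called, as with all genes. Of the 10 ovarian and epithelial markers looked for, only *KRT18* and *EPCAM* had enough counts to be tested. Both were higher under TH588, and the summed level of the list was 3.82 to 4.60 CPM under DMSO and 11.0 to 12.2 CPM under TH588. *PAX8*, *KRT7* and *ESR1* had 0 counts in every DMSO library. Normalized counts are given as CPM, counts scaled to a common library size after adjustment by the trimmed mean of M values (TMM). Of 11 stromal, endothelial and leukocyte markers, 6 could be tested, of which 2 were higher, 1 was lower (*CD34*, 0.318 and 0.0365 CPM on average) and 3 did not pass. Their summed level was 1588 to 1918 CPM under DMSO and 1878 to 2618 CPM under TH588, nearly all from the collagen gene *COL3A1*, and *CD3E*, the T cell marker, had 0 counts throughout. The part of either list of markers in the results was not tested.

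The 9 genes lie on 9 chromosomes of GRCh38. In the coordinates of the deposited table, *H2AX* spans chr11:119093854-119095467, *H2AJ* chr12:14774383-14778002, *H2AZ1* chr4:99948086-99950388, *H2AZ2* chr7:44826791-44848083 and *MACROH2A1* chr5:135333900-135399914. The other four are *MACROH2A2* at chr10:70052796-70112280, *H3-3A* at chr1:226061851-226072001, *H3-3B* at chr17:75776434-75785893 and *H1-10* at chr3:129314771-129316277. The canonical GENCODE transcripts of *H2AX*, *H2AJ* and *H1-10* have a single exon, as the clustered histone genes do, while those of *H2AZ1*, *H2AZ2*, *H3-3A*, *H3-3B* and both macroH2A genes have 4 to 9 exons.

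The ends of the *H2AX* and *H2AJ* coding sequences are shown because they hold what sets these close relatives apart, and because these genes moved furthest in opposite directions. In capitals are the last 4 codons before the stop codon, read from GENCODE v44 transcripts. In *H2AX* they encode serine, glutamine, glutamate and tyrosine, the motif whose serine is phosphorylated in γH2AX, and *H2AJ* ends in other residues.
*H2AX*, chr11:119094963-119094998, minus strand: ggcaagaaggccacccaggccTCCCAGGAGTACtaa
*H2AJ*, chr12:14774825-14774860, plus strand: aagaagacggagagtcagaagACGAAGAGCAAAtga

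Their promoters are shown for the same reason, as the stretch from 170 to 24 bases before the RefSeq start on GRCh38.p14. Capitals mark CCAAT boxes (CCAAT on either strand, so also ATTGG) and matches to the cell cycle homology region (CHR, searched as TTTGAA or TTCGAA on either strand).
*H2AX*, chr11:119095489-119095635, minus strand: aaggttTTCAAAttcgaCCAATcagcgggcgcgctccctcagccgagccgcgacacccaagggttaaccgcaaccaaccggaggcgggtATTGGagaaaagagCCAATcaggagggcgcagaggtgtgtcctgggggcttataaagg
*H2AJ*, chr12:14774235-14774381, plus strand: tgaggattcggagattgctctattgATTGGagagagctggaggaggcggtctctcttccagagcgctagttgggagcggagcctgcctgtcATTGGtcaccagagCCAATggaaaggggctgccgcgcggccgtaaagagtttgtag

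Both stretches hold an ATTGG followed by a CCAAT that begins 14 bases further on, at 81 and 67 bases before the start in *H2AX* and at 79 and 65 bases in *H2AJ*. This spacing was searched for after the sequences had been seen. It occurred in 5 of 35116 windows of 250 bases before RefSeq starts, those of *H2AX*, *H2AJ*, *AUH*, *TCF12* and *VCP*. At least 1 CCAAT box lay in the 250 bases before a start in 7 of the 9 genes, all but *H1-10* and *MACROH2A2*. By starts this was 9 of 13, against 32.01% of all such windows. A CHR match lay before *H2AX* and *H2AZ2* (2 of 13 starts), against 14.3% of all windows. TTTNNCGC, which covers common forms of the E2F site, was found before 1 of the 13 starts, in *MACROH2A1*, against 5.92% of windows. TATAAA lay before *H2AX*, *H2AZ1*, *H3-3B* and *H1-10* (4 of 13 starts), against 10.7%. *MACROH2A1* has 2 and *H3-3A* has 4 starts in this table, and *H3-3A* had a CCAAT box before all but the third. These matches are descriptions of the sequence, and binding was not measured.

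After TH588, 5 of the 9 replacement variants fell, 2 rose and 2 did not pass the test. *H2AX*, *H2AZ1*, *MACROH2A1*, *H2AZ2* and *MACROH2A2* were lower, with *H2AX* down to about 31.4% of its DMSO level, while *H2AJ* rose 2.20-fold and *H3-3A* by 0.27 on the log2 scale. *H3-3B* and *H1-10* did not pass the threshold of an adjusted p under 0.05 (edgeR's quasi-likelihood test with Benjamini-Hochberg adjustment over 15844 genes). All 9 genes were abundant enough to be tested. The background is wide: 49.6% of all genes tested were called, 24.2% as higher and 25.3% as lower, so the 7 of 9 called are read against that share. With library size only, 4248 genes were higher and 2786 lower, against 3839 and 4013. The median log2 fold change of the 9 genes was -0.36, against 0.02 for all genes tested. In RNA from bulk cultures, fewer cells of a kind and less RNA per cell cannot be told apart.

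**Figure D1:**
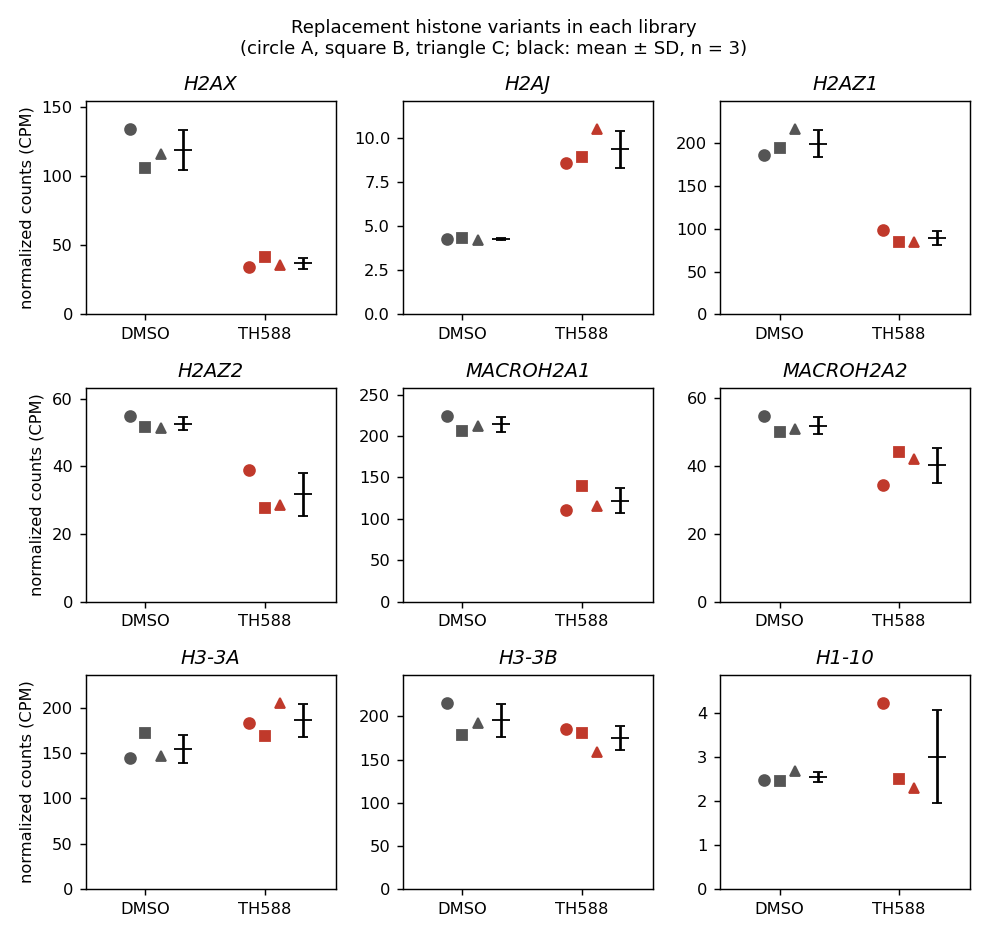
Normalized counts (CPM) of the 9 replacement variants in each library; circles, squares and triangles are replicates A, B and C, gray is DMSO, red is TH588, and the black bars give mean ± SD (n = 3). The groups separate in *H2AX*, *H2AJ*, both H2A.Z genes and both macroH2A genes, and overlap in *H3-3A*, *H3-3B* and *H1-10*.

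**Figure D2:**
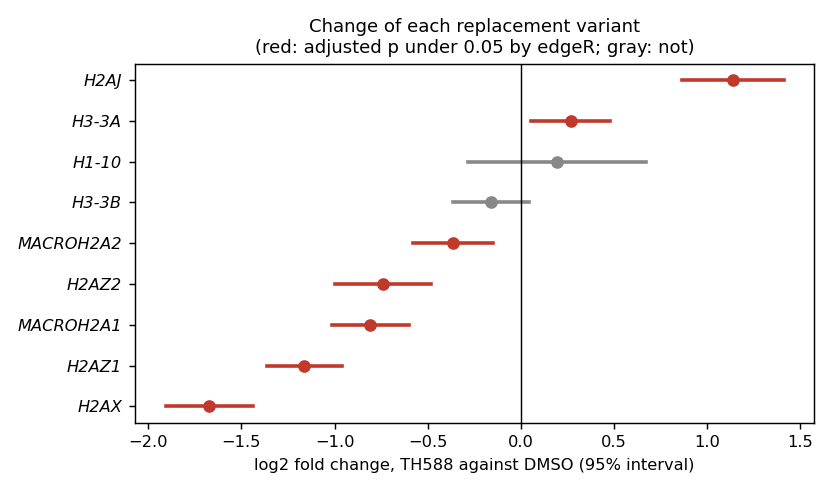
Log2 fold change of each replacement variant after TH588 against DMSO, with its 95% interval from the edgeR fit; red marks an adjusted p under 0.05 and gray the rest. The genes run from *H2AX* at -1.67 to *H2AJ* at 1.14.

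The normalized counts of the groups did not overlap in 6 of the 9 genes, against 57.7% of all genes tested. The plot of normalized counts by library shows that in *H3-3A* the groups did overlap, although it passed the test.

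*H2AX*, the substrate of the DNA damage kinases, had 134.1, 105.7 and 115.5 CPM in the DMSO libraries, in the order A, B and C as for every gene here, and 33.9, 41.6 and 35.7 CPM in the TH588 libraries. Every TH588 library lay below every DMSO library by a wide margin. The log2 change came to -1.67 (standard error, SE, of 0.11 and edgeR adjusted p = 2.41e-07), the largest fall among the 9 genes. No exon of another gene overlaps *H2AX* in the table, and between 908 and 11022 reads were counted per library.

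*H2AJ*, which differs from the common H2A mainly at its C-terminus, had 4.26, 4.31 and 4.196 CPM under DMSO and 8.59, 8.93 and 10.5 CPM under TH588. The DMSO libraries were nearly identical, and the lowest TH588 library was still clearly above them. Its log2 change came to 1.14 (SE 0.12, edgeR adjusted p = 1.26e-05). The gene is scarce, with 230 to 971 reads per library, and *H2AX* remained the more abundant of the pair in every library. The log2 ratio of *H2AX* to *H2AJ* counts was 4.79 ± 0.181 under DMSO and 1.99 ± 0.228 under TH588 (SD, n = 3 each), so that *H2AX* gave 24.5 to 31.5 reads for each *H2AJ* read under DMSO and 3.40 to 4.66 under TH588.

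*H2AZ1* and *H2AZ2* encode the 2 forms of H2A.Z, which differ in only a few residues. *H2AZ1* had 186.2, 193.9 and 216.4 CPM under DMSO and 98.3, 84.5 and 84.1 CPM under TH588. *H2AZ2* had 54.9, 51.7 and 51.3 CPM under DMSO and 39.0, 27.7 and 28.5 CPM under TH588. Neither gene's groups overlapped, and in both the highest TH588 library was replicate A, the shallowest. *H2AZ1* changed by -1.16 on the log2 scale (SE 0.09, edgeR adjusted p = 9.99e-07). *H2AZ2* changed by -0.74 (SE 0.12, edgeR adjusted p = 0.000259). Summed over both genes, H2A.Z transcripts were at 251.5 ± 14.2 CPM under DMSO and 120.7 ± 14.4 CPM under TH588, a ratio of 0.480 (SD, n = 3 each).

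*MACROH2A1* and *MACROH2A2* encode macroH2A1 and macroH2A2. *MACROH2A1* had 224.3, 205.8 and 212.0 CPM under DMSO and 111.3, 139.4 and 115.8 CPM under TH588, without overlap. Its log2 change came to -0.81 (SE 0.09, edgeR adjusted p = 2.16e-05). *MACROH2A2* had 54.7, 50.0 and 50.8 CPM under DMSO and 34.3, 44.2 and 42.0 CPM under TH588, so its groups lay closer together. Its log2 change came to -0.36 (SE 0.10, edgeR adjusted p = 0.00900), which lost significance with library size only (adjusted p = 0.172) and without DMSO replicate A (adjusted p = 0.0531). The splice forms macroH2A1.1 and macroH2A1.2 share 1 row of the table and were not separated. In *MACROH2A1*, 30.9% of exon bases also lie in exons of *PITX1-AS1* or an unnamed gene, which had 18 to 72 and 0 counts per library.

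*H3-3A* and *H3-3B* encode the same H3.3 protein. *H3-3A* had 144.3, 172.8 and 146.9 CPM under DMSO and 183.8, 169.4 and 205.4 CPM under TH588, where TH588 replicate B lay below DMSO replicate B. Its log2 change of 0.27 (SE 0.10, edgeR adjusted p = 0.0381) passed the threshold. It did not pass without DMSO replicate A, DMSO replicate C or TH588 replicate C, with edgeR adjusted p-values of 0.109, 0.117 and 0.116. Nor did it pass with a replicate block in the edgeR fit (adjusted p = 0.0744). *H3-3B* had 215.6, 178.3 and 192.6 CPM under DMSO and 185.5, 180.6 and 159.3 CPM under TH588. Its log2 fold change was -0.16 (95% interval -0.36 to 0.04, adjusted p = 0.178 from edgeR). Summed over both genes, H3.3 transcripts were at 350.2 ± 10.2 CPM under DMSO and 361.4 ± 10.1 CPM under TH588 (SD, n = 3 each), a ratio of 1.03, and the ranges of the groups overlapped. Other genes share 4.91% of the exon bases of *H3-3B*, among them *UNK*, which had 339 to 1796 counts.

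*H1-10*, the linker histone of the list, was scarce, with 113 to 271 reads per library. It had 2.48, 2.46 and 2.68 CPM under DMSO and 4.22, 2.49 and 2.30 CPM under TH588, and the higher mean under TH588 came from replicate A alone. The log2 fold change was 0.19 (95% interval -0.28 to 0.67, adjusted p = 0.489 from edgeR), and -0.07 without TH588 replicate A. Exons of *H1-10-AS1* overlap 22.9% of its exon bases, and that gene had at most 7 counts in a library.

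Ratios of paralogs within a library need no scaling between libraries, so they were compared as a second measure. The pairs shared only short runs of identical coding sequence, the longest being 14 bases for *H3-3A* with *H3-3B*, 23 for *H2AZ1* with *H2AZ2*, 17 for *MACROH2A1* with *MACROH2A2* and 44 for *H2AX* with *H2AJ*. Of 411 coding bases, *H3-3A* and *H3-3B* differ at 88, although their protein is the same. *H2AZ1* and *H2AZ2* differ at 76 of 387.

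The log2 ratio of *H2AZ1* to *H2AZ2* was 1.91 ± 0.158 under DMSO and 1.501 ± 0.147 under TH588 (SD, n = 3 each). That of *MACROH2A1* to *MACROH2A2* was 2.05 ± 0.0132 and 1.61 ± 0.125 (SD, n = 3 each). In both pairs the ratio was lower under TH588, by 0.41 and 0.44 log2 units, and the groups did not overlap. The log2 ratio of *H3-3A* to *H3-3B* was -0.34 ± 0.271 and 0.09 ± 0.245 (SD, n = 3 each), and its groups did overlap. In exact two-sided permutation tests of the 4 pairs, p was 0.1 for *H2AX* to *H2AJ*, *H2AZ1* to *H2AZ2* and *MACROH2A1* to *MACROH2A2*, the smallest value that 3 libraries against 3 allow, and 0.2 for *H3-3A* to *H3-3B* (0.133 and 0.2 after Benjamini-Hochberg adjustment).

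**Figure D3:**
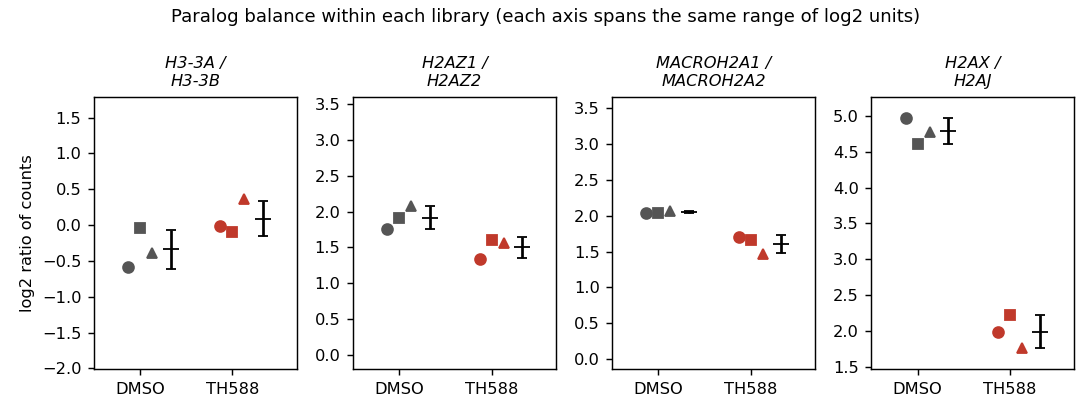
Log2 ratio of the counts of 4 paralog pairs within each library; circles, squares and triangles are replicates A, B and C, gray is DMSO, red is TH588, black bars are mean ± SD (n = 3), and each vertical axis spans the same number of log2 units. The ratio of *H2AX* to *H2AJ* lay between 4.62 and 4.98 under DMSO and between 1.76 and 2.22 under TH588, and only the ratio of *H3-3A* to *H3-3B* overlapped between the groups.

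Levels of different genes were compared as CPM per kilobase, both by the exon length in the deposited table and by the length of the canonical GENCODE transcript, because the table's lengths merge all annotated exons and reach 17730 bases for *MACROH2A1*, against 1917 for its canonical transcript. On both scales *H2AZ1* had the highest mean under DMSO, at 86.3 ± 6.81 CPM per kilobase of table length and 229.6 ± 18.1 per kilobase of canonical length (SD, n = 3 each). By table length its range of 80.8 to 93.9 overlapped with the 65.5 to 83.1 CPM per kilobase of *H2AX*. With TH588, *H3-3A* was highest on both scales, at 59.2 ± 5.76 and 174.0 ± 16.9 CPM per kilobase (SD, n = 3 each), followed by *H2AZ1* and then *H3-3B*.

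By canonical length, the order under DMSO was *H2AZ1*, *H3-3A*, *MACROH2A1*, *H2AX*, *H3-3B*, *MACROH2A2*, *H2AZ2*, *H2AJ* and *H1-10*. Of these, only the neighbors *H2AX* (66.4 to 84.3 CPM per kilobase) and *H3-3B* (65.9 to 79.7) overlapped. With TH588 the order was *H3-3A*, *H2AZ1*, *H3-3B*, *MACROH2A1*, *H2AX*, *MACROH2A2*, *H2AJ*, *H2AZ2* and *H1-10*, where *H3-3B* overlapped with *MACROH2A1* and *H2AX* with *MACROH2A2*. *H2AJ* lay above *H2AZ2* under TH588 only by canonical length, since by table length it was at 2.78 ± 0.307 against 6.68 ± 1.33 CPM per kilobase (SD, n = 3 each). As a share of the summed level of all 9 genes per canonical length, *H2AX* took 9.81% to 12.3% under DMSO and 4.43% to 5.56% under TH588. By table length these shares were 23.0% to 27.7% and 11.1% to 13.9%. *H3-3A* took 19.7% to 23.9% under DMSO and 33.7% to 40.0% under TH588 by canonical length, and 15.3% to 19.3% and 28.9% to 34.7% by table length. The 9 genes together gave 965.0 to 1021 CPM under DMSO and 683.6 to 699.0 CPM under TH588. A share can therefore rise while the gene's own level changes little. *H3-3A* itself had 144.5 ± 14.8 CPM per kilobase of canonical length under DMSO and 174.0 ± 16.9 under TH588 (SD, n = 3 each).

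The factors that place these variants were looked up in lists, shown in the plot of log2 fold changes by list. The counts of each list are read against the 24.2% of all tested genes that were higher and the 25.3% that were lower. Of 7 genes that deposit H3.3, 4 were lower and 2 higher, with a median log2 fold change of -0.31. *HIRA*, *UBN1* and *ASF1A*, of the pathway that acts at genes, fell with log2 fold changes of -0.68, -0.51 and -0.79, and *DAXX*, the chaperone of the repeat pathway, fell by 0.31. *ATRX*, its remodeling partner, rose by 0.30 and *UBN2* by 0.40, and *CABIN1* did not pass (log2 fold change 0.19, adjusted p = 0.0810 from edgeR).

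Of 12 genes of the machines that exchange H2A.Z, 5 were lower and 3 higher, with a median of -0.19. The ATPases *RUVBL1* and *RUVBL2* fell, with log2 fold changes of -0.80 and -0.53, as did the YEATS domain reader *YEATS4* (-0.88) and *ANP32E* (-0.51), the chaperone that takes H2A.Z out of nucleosomes. *ZNHIT1* and *DMAP1*, subunits of these complexes, rose, with log2 fold changes of 0.56 and 0.53. *SRCAP*, the catalytic subunit, was at -0.18 and *VPS72*, which binds H2A.Z, at -0.01, and neither passed the test.

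All 8 genes listed as histone chaperones at replication forks, or as their partners, fell, with a median of -1.33. Among them were *SSRP1* (-1.72) and *SUPT16H* (-0.76) of FACT, *CHAF1A* (-1.28) and *CHAF1B* (-1.37) of CAF-1, *ASF1B* (-1.12) and *NASP* (-0.85), which carry H3 with H4, and *TONSL* (-1.40), a reader of new H4, with its partner *MMS22L* (-1.45). Among 8 tested kinases, readers and phosphatases of H2AX, 5 were lower and 1 higher, with a median of -0.56. *MDC1*, the reader of γH2AX, fell from 156.7 ± 2.16 to 70.1 ± 5.31 CPM (SD, n = 3 each). The kinases *PRKDC* (-0.85), *BAZ1B* (-0.79) and *ATR* (-0.37) and the phosphatase *EYA2* (-0.76) fell as well. The phosphatase *PPP4C* rose by 0.28, and neither the kinase *ATM* (0.22) nor *EYA3* (-0.12) passed the test. Of 5 genes tied to macroH2A, 4 fell, among them *PARP1* (-0.999), *HELLS* (-1.28) and *LMNB1* (-0.93). In all these lists, 27 genes were lower and 8 higher, including the 3 other histone variants that could be tested.

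**Figure D4:**
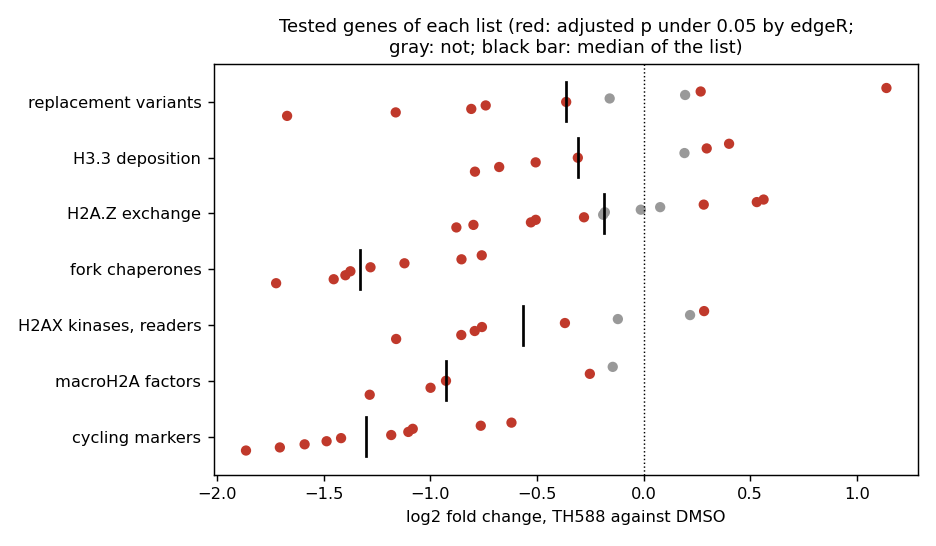
Log2 fold changes after TH588 of the tested genes in each list shown, 1 point per gene; red marks an adjusted p under 0.05 from edgeR, gray the rest, and the black bars are list medians. The fork chaperones and cycling markers lie wholly below 0, while the replacement variants span -1.67 to 1.14.

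Other variants that are made outside S phase were mostly silent. Of 16 listed genes, 15 are in the table, 9 of these had 0 counts in all 6 libraries and 3 could be tested. *CENPA*, the H3 variant that marks centromeres, fell to 5.55 ± 0.540 CPM from 10.7 ± 1.27 CPM (SD, n = 3 each), or -0.94 on the log2 scale (edgeR adjusted p = 8.36e-05). *H1-7*, a testis linker histone, passed the test as higher but was near 0, with 0, 4 and 1 counts in the DMSO libraries and 6, 14 and 11 in the TH588 libraries.

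Markers of cycling cells were looked up as well. All 10 listed, among them *MKI67*, *TOP2A* and *PCNA*, were lower, and their summed level ranged from 3919 to 4198 CPM under DMSO and from 1409 to 1712 CPM under TH588. Of 52 tested replication-dependent histone genes, chosen by symbol after the values were seen, 48 were lower and 4 did not pass. Of all genes tested, 25.3% were lower. The median log2 fold change of the 52 histone genes was -1.65, against -0.36 for the 9 replacement variants and -1.67 for *H2AX* alone. The sum over all 65 replication-dependent histone genes, tested or not, was 18140 to 19108 CPM under DMSO and 6041 to 7421 CPM under TH588. The labels nevertheless describe poly(A) RNA. The part of the cycling state in the changes of the replacement variants was not tested.

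Few reads were assigned to pseudogenes of H3 and H2A.Z, and how many reads match both a member and a pseudogene was not determined. The 47 H3 pseudogenes in the table together had 4.52 to 5.43 CPM per library, of which *H3P6* had 3.06 to 4.05 CPM, and 8 H2A.Z pseudogenes had 0.276 to 0.718 CPM. How reads that match several genes were treated is not stated, so the levels of *H3-3A*, *H3-3B* and *H2AZ1* carry that uncertainty. So do those of *H2AX* and the scarce *H2AJ*, whose coding sequences share a run of 44 bases.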

How the data were processed

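The values are raw counts per gene, deposited without normalization. Per the labels and methods, the authors used TopHat on GRCh38 and featureCounts 1.4.6. Gene models are stated to be from UCSC, yet rows carry Ensembl identifiers, and the strand setting is not given in the sources used here. All 9 genes were matched from Ensembl identifier to symbol with a reference table of gene names, and each overlaps the GENCODE v44 gene of the same identifier.

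Counts were compared with edgeR 4.0.16 in R 4.3.3 (TMM, default filter on low counts, quasi-likelihood test, adjusted p under 0.05 over 15844 genes) without a replicate term. Each standard error came from the fitted change and its F statistic (change over the root of F). The procedure was tested on simulated data. The alternatives were DESeq2 1.42.0 and its size factors, library size only, limma-voom (limma 3.58.1), other filters, scaling without the 10 most abundant genes, a replicate block and each library left out. The 3 libraries per group are biological replicates.

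Members and lists were chosen with earlier results of these data known. Named are all 9 members, and partner genes with an adjusted p under 0.05 and a log2 fold change beyond 0.5, plus *CENPA*, and for each member the 3 genes most correlated with it. Some genes named by this rule are not reported here. Other partners named, and *COL3A1*, were chosen after their values were seen. Promoters are from RefSeq, coding sequences from GENCODE v44.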

Additional observations from a re-analysis of the deposited data

How the results depend on the processing

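No member's call was lost in *H2AX*, *H2AJ*, *H2AZ1*, *H2AZ2* or *MACROH2A1* under any of the 14 alternatives run for each, and their log2 fold changes stayed between -1.765 and -1.553, 1.063 and 1.249, -1.227 and -1.064, -0.895 and -0.647, and -0.915 and -0.699. *MACROH2A2* lost significance with library size only (-0.252), and lay between -0.437 and -0.255 when 1 library was dropped. *H3-3A* lost significance with the replicate block (0.268, adjusted p = 0.0744), and ranged from 0.211 to 0.351 with a library left out. *H1-10*, not significant in any fit, ranged from -0.073 without TH588 replicate A to 0.378. The number of called members was 5 to 7 over all alternatives, 6 with an adjusted p under 0.01 and 7 with DESeq2. Library size alone moved the median of all genes to 0.126 from 0.019, and leaving out the filter to 0.141. DESeq2 gave 0.138 on the same 25695 unfiltered genes, while its size factors on the filtered genes gave 0.022. Libraries with the same letter were not treated as pairs in the main fit. Same-letter deviations were correlated at -0.07, -0.08 and 0.00, which cannot show whether the libraries were paired. The block gave 7195 called genes against 7852. Levels per kilobase by canonical length, chosen after seeing the data, changed the order of genes. The cause of these changes was not tested.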

Other observations

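Among the 9750 other genes (9751 for *H1-10*) with a symbol and a mean log2 CPM of at least 2, those whose log2 CPM followed a member most closely over the 6 libraries were picked by Pearson's r, up to 3 for each. Since both treatments enter each value, r mainly follows the difference between the groups. *H2AX* was most like *NOC3L*, *KLF6* and *TK1* (r = 0.9996, 0.9993 and 0.9993), with log2 fold changes of -0.87, -0.56 and -1.62, against the -1.67 of *H2AX*. *H2AZ1* was most like *HDAC2* and *MRPL3* (r = 0.9996 and 0.9993). *MACROH2A1* was most like *MYLK*, *DTYMK* and *DNMT1* (r = 0.9993, 0.9992 and 0.9989), with log2 fold changes of -0.51, -1.19 and -1.20, against -0.81 for *MACROH2A1*. *H2AJ* was most like *EXOC4*, *ZNF333* and *DKK1* (r = 0.9994, 0.9990 and 0.9989), with log2 fold changes of 0.72, 0.69 and 1.23, against 1.14 for *H2AJ*. For *H2AZ2* they were *TJP1*, *IPO8* and *DDHD1*, for *MACROH2A2* *DPP3*, *SAFB* and *U2AF2*, for *H3-3A* *RPS3*, *NLK* and *PIGB*, for *H3-3B* *SLC66A2*, *ARFRP1* and *IGF2BP2*, and for *H1-10* *ANKRD17*, *GPM6A* and *MMAB*.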
